A study of Mus musculus with 30 samples.

Results

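Glycolysis is the chain of enzymes that splits glucose into pyruvate, and 10 of its genes are described here in mouse mammary glands: the glucose transporter gene Slc2a1, the enzyme genes Hk2, Pfkl, Aldoa, Aldoc, Gapdh, Pgk1, Eno1 and Pkm, and Ldha, which makes lactate from pyruvate. The genes were picked by name, with earlier results of these data known, and which measured values led to Aldoc being set beside the others is not stated. Of the 10, 9 have probes on the array by the platform's annotation, all 9 had values on all 30 arrays, and Eno1, an enolase gene, has no probe there. These 9 are among 11463 genes that could be tested. Aldoc was higher in most glands with the oncogene, with a difference of 2.94 ± 0.94 (SE, log2) between Her2/Neu+ and WT glands, and the estimated differences of the other 8 were at most 1.76-fold in the 4 comparisons of groups. That largest fold, of Slc2a1, rests in part on values at the lower end of the scale, so the true fold may be larger. Several of the 8 differed by more within part of the arrays, as given further on.

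The study set 4 groups of mice on a 129sv background against each other, with inguinal mammary glands taken at 19 weeks of age and 1 gland per array. There were 7 WT glands, 8 from IFNAR1-/- mice, which lack a chain of the type I interferon receptor, 6 from Her2/Neu+ mice, which carry the Her2/Neu oncogene, and 9 from Her2/Neu+/IFNAR1-/- mice, which carry the oncogene and lack the receptor chain. By its title the series asks what the body's own type I interferon does in tumour formation driven by this oncogene. Which promoter drives the oncogene, and whether a gland held a tumour, is not given in the sources used here. Each value is the log2 ratio of gland RNA to a universal mouse reference RNA that was the same on all 30 arrays, so values below 0 are those lower in the gland RNA than in this reference, and levels of different genes cannot be ranked against each other. Values stop at 6 and -6. Because whole glands were measured, fewer cells of a type and less RNA per cell cannot be told apart.

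Glucose enters cells through transporters of the SLC2A family, is trapped by hexokinase and committed to breakdown by phosphofructokinase. Aldolase then splits the phosphorylated sugar, and the lower enzymes recover energy up to pyruvate, which lactate dehydrogenase can turn into lactate. Aldoa is the aldolase of muscle and most tissues and Aldoc is best known from brain, and several of these genes are classical targets of the hypoxia-inducible factors. In the mammary gland the fat cells of the stroma and the milk-producing luminal epithelium both take up glucose, the latter also to make lactose.

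The promoters of Aldoc and of the members whose levels went with it or against it from gland to gland (Slc2a1, Hk2 and Pgk1, values further on) are printed here to show how alike their start regions are in 1 respect, the core of the hypoxia response element. Each run is the 250 bases before the first base of the gene, 5′ to 3′ on the gene's strand, from RefSeq on the mouse assembly GRCm38.p6, and capitals mark ACGTG or GCGTG on either strand (CACGT or CACGC as printed).
Aldoc, chr11:78322823-78323072, plus strand: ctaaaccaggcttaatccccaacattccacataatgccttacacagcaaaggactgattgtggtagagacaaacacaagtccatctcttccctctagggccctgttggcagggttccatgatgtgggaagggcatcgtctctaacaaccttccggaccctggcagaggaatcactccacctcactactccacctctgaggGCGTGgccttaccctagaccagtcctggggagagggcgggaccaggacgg
Slc2a1, chr4:119108495-119108744, plus strand: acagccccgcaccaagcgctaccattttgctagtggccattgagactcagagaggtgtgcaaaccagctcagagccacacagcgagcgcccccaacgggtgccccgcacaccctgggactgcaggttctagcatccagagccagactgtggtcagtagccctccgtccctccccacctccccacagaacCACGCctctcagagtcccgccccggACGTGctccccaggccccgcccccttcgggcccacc
Hk2, chr6:82774455-82774704, minus strand: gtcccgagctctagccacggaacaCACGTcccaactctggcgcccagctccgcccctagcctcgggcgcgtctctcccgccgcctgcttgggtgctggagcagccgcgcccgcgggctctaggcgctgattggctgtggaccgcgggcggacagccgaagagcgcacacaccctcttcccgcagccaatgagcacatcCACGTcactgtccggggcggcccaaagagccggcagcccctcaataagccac
Pgk1, chrX:106186850-106187099, plus strand: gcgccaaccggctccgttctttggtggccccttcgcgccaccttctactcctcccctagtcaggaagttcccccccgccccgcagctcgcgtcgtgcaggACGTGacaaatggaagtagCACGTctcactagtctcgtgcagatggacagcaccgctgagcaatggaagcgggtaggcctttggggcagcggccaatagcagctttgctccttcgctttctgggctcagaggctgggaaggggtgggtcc
Aldoc held 1 match, 50 bases before its start, and Slc2a1 held 2, at 61 and 36 bases. Hk2 held 2, at 226 and 52 bases, and Pgk1 held 2, at 150 and 131 bases. RefSeq lists 17 start windows for the 10 genes, and 15 of them, with at least 1 for each gene, held a match, beside 38.6% of all 32851 such windows of the mouse table. Some windows of Aldoa and of Eno1 overlap and hold the same sites, so the windows are not separate counts. ACGTG is also part of other motifs such as the E-box CACGTG, and a match describes these letters only.

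Each array gave between 17485 and 20801 values, with array medians from -0.12 to -0.00. Of the 11463 genes, 3 passed the test of all genes between IFNAR1-/- and WT glands, 15 between Her2/Neu+ and WT, 9 between Her2/Neu+/IFNAR1-/- and Her2/Neu+, and 150 between Her2/Neu+/IFNAR1-/- and IFNAR1-/-. To pass, a gene needed an adjusted p under 0.05 (Benjamini-Hochberg) in limma's moderated test. Of genes active in fat, Pck1 stood at the upper limit of 6 on all 30 arrays. Markers of skeletal muscle, with 6 of 12 measured, were high on IFNAR1-/- 41, 42 and 44, where their mean after centring was between 3.71 and 4.43, and on Her2/Neu+/IFNAR1-/- 106, where it was 3.50, against at most -0.61 in WT glands. On each array between 2639 and 10385 values are shared, to the last digit, by several probes, and how they arose is not given in the sources used here. The order of the blocks splits the arrays into 8 likely slides and 2 likely sets of 15 arrays, which the labels do not name.

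At the entry of the pathway the 3 genes for transport, trapping and commitment did not pass in any comparison of groups. Slc2a1, the transporter gene, lay far below the reference. Its log2 ratio ran from -4.63 to -3.24 in WT glands (median -3.60), from -6 to -3.09 in IFNAR1-/- (median -3.97), from -6 to -2.70 in Her2/Neu+ (median -4.60) and from -6 to -2.31 in Her2/Neu+/IFNAR1-/- glands (median -4.08). The groups overlapped, and 4 arrays stood at the lower limit of the scale, Her2/Neu+ 114 and 119 among them, so that their true level may be lower still. The difference was -0.82 ± 0.59 (SE) between Her2/Neu+ and WT glands and 0.47 ± 0.56 between Her2/Neu+/IFNAR1-/- and Her2/Neu+ glands, both with the limit taken as a value. Hk2, an inducible hexokinase of muscle, fat and many tumours, had a mean of 1.20 ± 0.84 (SD, n = 7) for WT, 0.77 ± 1.26 (n = 8) for IFNAR1-/-, 0.72 ± 1.37 (n = 6) for Her2/Neu+ and 0.76 ± 1.25 (n = 9) for Her2/Neu+/IFNAR1-/- glands. In each group single glands were spread over at least 2.63 log2 units, so that the small gaps between the means lay well inside the spread. Of its values, 4 are shared to the last digit with other probes, on Her2/Neu+ 113 and Her2/Neu+/IFNAR1-/- 105, 108 and 109, and with such values set to missing its difference of Her2/Neu+/IFNAR1-/- from IFNAR1-/- glands was 0.57 ± 0.58 (SE) in place of -0.00 ± 0.56, and that averaged over both receptor states 0.20 ± 0.43 in place of -0.24 ± 0.42. Pfkl, the liver-type phosphofructokinase subunit, had means of -1.57 ± 0.70 (SD, n = 7) for WT, -0.81 ± 0.73 (n = 8) for IFNAR1-/-, -1.94 ± 0.73 (n = 6) for Her2/Neu+ and -1.43 ± 0.74 (n = 9) for Her2/Neu+/IFNAR1-/- glands. Its difference of 0.76 ± 0.37 (SE) in IFNAR1-/- over WT glands was the highest of any member in that comparison, with 7 of 8 glands above the WT mean (limma, adjusted p = 0.725).

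The 2 aldolase genes, Aldoa at chr7:126795234-126800994 and Aldoc at chr11:78323073-78327781 (GRCm38.p6), had different patterns. Aldoa ran from -0.06 to 1.81 in WT glands (median 0.58) and from -0.48 to 2.46 in IFNAR1-/- glands (median 0.27). In glands with the oncogene it ran from -1.50 to 1.76 in Her2/Neu+ (median 0.36) and from 0.02 to 1.77 in Her2/Neu+/IFNAR1-/- glands (median 0.92). All 4 groups overlapped, and the 2 lowest glands of all 30 were Her2/Neu+ 114, at -1.50, and Her2/Neu+ 119, at -1.08. The difference of Her2/Neu+ from WT was -0.58 ± 0.46 (SE).

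Aldoc ran from -1.49 to -0.09 in WT glands (median -0.48) and from -1.79 to 1.19 in IFNAR1-/- glands (median -0.39). It ran from -2.43 to 4.17 in Her2/Neu+ glands (median 3.46) and from -1.99 to 4.39 in Her2/Neu+/IFNAR1-/- glands (median 2.24). Of the 6 Her2/Neu+ glands, 5 were above all WT glands and 1, Her2/Neu+ 114, was below them all. That lowest value, -2.43, is the only one of Aldoc that other probes of its array share to the last digit, 3 probes in all. Of the 9 Her2/Neu+/IFNAR1-/- glands, 7 were above all IFNAR1-/- glands, and the other two were Her2/Neu+/IFNAR1-/- 103, at -1.99, and 104, at -0.58. With the oncogene the mean was higher by 2.94 ± 0.94 (SE), or 7.67-fold, where the receptor was intact and by 2.36 ± 0.82, or 5.14-fold, where it was absent. Since Aldoc was picked with results of these glands known, these values describe the choice and carry no test. Receptor loss went with a difference of 0.21 ± 0.87 without the oncogene and of -0.37 ± 0.89 with it, and the 95% interval of the latter, from -2.19 to 1.45, leaves room for changes of several fold. That latter value joins opposite signs. It was -2.47 ± 1.15 (SE) in the first inferred array set and 3.06 ± 0.94 in the second, which holds 2 Her2/Neu+ glands. The SD of Aldoc within groups, 1.77, was higher than that of 97.9% of all genes, and the other members' SDs lay between 0.45 for Gapdh and 1.20 for Hk2, beside a median of 0.72 over all genes.

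**Figure D1:**
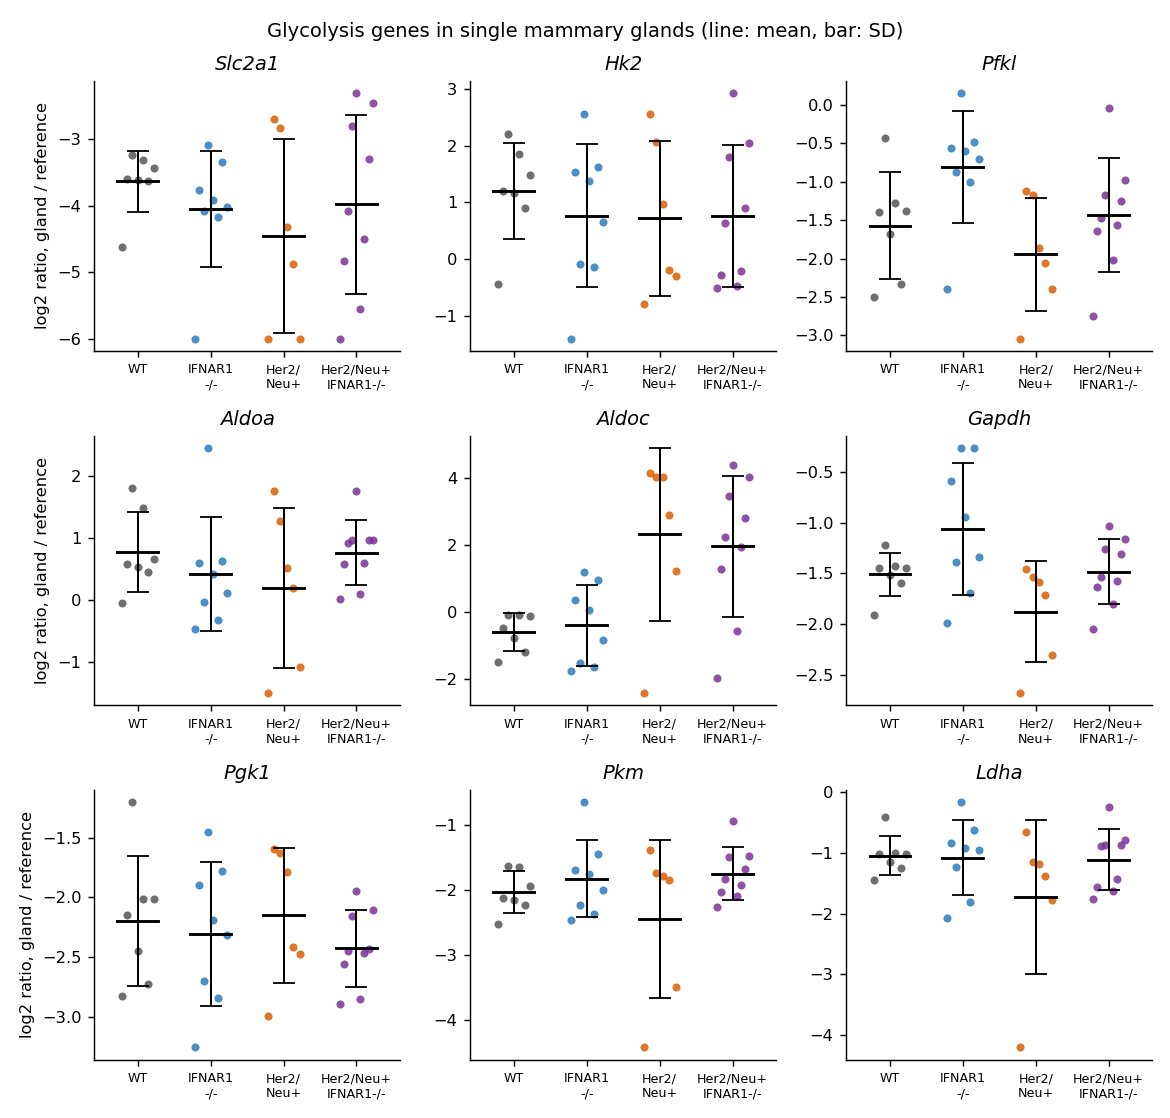
Log2 ratio of gland to reference for the 9 measured genes, 1 point per gland, with the 4 groups along the x axis; the long line is the group mean and the bar its SD. Aldoc is the one panel where most glands with the oncogene lie above those without it, and the lowest orange points of Aldoa, Pkm, Ldha and Gapdh are Her2/Neu+ 114 and 119.

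Below the aldolase step, Gapdh, which oxidises glyceraldehyde 3-phosphate and is often used as a reference gene, had means of -1.51 ± 0.21 (SD, n = 7) for WT, -1.06 ± 0.65 (n = 8) for IFNAR1-/-, -1.88 ± 0.50 (n = 6) for Her2/Neu+ and -1.48 ± 0.32 (n = 9) for Her2/Neu+/IFNAR1-/- glands. It was the steadiest member, with an SD within groups of 0.45. Its value is the mean of 7 probes, and these did not move alike: the difference of Her2/Neu+ from WT ran from -1.08 to 0.42 from probe to probe. Pgk1, which makes the first ATP of the lower pathway, had means between -2.43 ± 0.32 (SD, n = 9) for Her2/Neu+/IFNAR1-/- and -2.15 ± 0.56 (n = 6) for Her2/Neu+ glands, with WT at -2.20 ± 0.55 (n = 7) and IFNAR1-/- at -2.30 ± 0.60 (n = 8). Its largest difference in the 4 comparisons of groups, -0.28 ± 0.28 (SE) in Her2/Neu+/IFNAR1-/- against Her2/Neu+ glands, was smaller than the largest of any other member.

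Pkm, the pyruvate kinase gene of most tissues outside liver and red cells, ran from -2.53 to -1.63 in WT glands (median -2.12) and from -2.46 to -0.65 in IFNAR1-/- glands (median -1.88). It ran from -4.42 to -1.38 in Her2/Neu+ glands (median -1.81) and from -2.26 to -0.94 in Her2/Neu+/IFNAR1-/- glands (median -1.83). The lowest of all were Her2/Neu+ 114 and 119, at -4.42 and -3.48, while the other 4 Her2/Neu+ glands lay between -1.85 and -1.38. The difference was -0.41 ± 0.37 (SE) between Her2/Neu+ and WT glands and 0.70 ± 0.35 between Her2/Neu+/IFNAR1-/- and Her2/Neu+ glands.

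Ldha, the lactate dehydrogenase subunit of muscle and of many tumours, ran from -1.45 to -0.41 in WT glands (median -1.03) and from -2.08 to -0.17 in IFNAR1-/- glands (median -0.94). It ran from -4.20 to -0.65 in Her2/Neu+ glands (median -1.29) and from -1.76 to -0.25 in Her2/Neu+/IFNAR1-/- glands (median -0.89). Her2/Neu+ 114 was again the lowest gland of all, Her2/Neu+ 119, at -1.78, also lay below all WT glands, and the other 4 overlapped them. The difference was -0.68 ± 0.39 (SE) between Her2/Neu+ and WT glands. Its 3 probes gave between -0.97 and -0.12 for that difference. Eno1 itself was not measured, and Eno1b, a related gene that is no member and lies elsewhere in the genome, had 2 probes whose values correlated at 0.38 over the arrays, and it did not pass in any comparison.

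Read as a group, none of the 9 members passed in IFNAR1-/- against WT glands, where 0.0262% of all genes passed, and 1 member (Pfkl) had an unadjusted p under 0.05, as had 6.87% of all genes. In Her2/Neu+ against WT glands 0 of 9 passed beside 0.131% of all genes, with 1 member (Aldoc) under an unadjusted 0.05 beside 12.1% of genes. In Her2/Neu+/IFNAR1-/- against Her2/Neu+ glands 0 of 9 passed beside 0.0785% of genes, with 0 members and 11.2% of genes under an unadjusted 0.05. In Her2/Neu+/IFNAR1-/- against IFNAR1-/- glands 0 of 9 passed beside 1.31% of genes, with 1 member (Aldoc) and 18.5% of genes under an unadjusted 0.05. These are limma's tests, and each group enters more than 1 of the comparisons, so they are not independent of each other. Nothing is read from the counts that hold Aldoc, which was picked with these data known.

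Without Aldoc, the lowest adjusted p in limma's test was 0.725, 0.501, 0.462 and 0.319 in these 4 comparisons, and the largest fold was 1.70, 1.76, 1.62 and 1.54. The fold of 1.76 is that of Slc2a1, with the limit taken as a value. The median difference of the 8 other members was -0.07 in IFNAR1-/- against WT glands, beside -0.08 for all genes. It was -0.44 beside -0.02 in Her2/Neu+ against WT glands, 0.49 beside 0.11 in Her2/Neu+/IFNAR1-/- against Her2/Neu+ glands and -0.02 beside 0.15 in Her2/Neu+/IFNAR1-/- against IFNAR1-/- glands. The Her2/Neu+ glands are part of the middle pair of comparisons, which therefore mirror each other. For the interaction, the change of the receptor's effect by the oncogene, 0 of 9 members passed beside 0.0174% of genes, and 0 members beside 9.62% of genes were under an unadjusted 0.05 (limma), with values from -0.58 ± 1.24 (SE) for Aldoc to 0.93 ± 0.61 for Aldoa. In array set 1 alone the interaction was -3.17 ± 1.70 for Aldoc and 0.12 ± 0.93 for Aldoa. In array set 2 alone it was 3.24 ± 1.25 and 2.33 ± 0.45.

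When the effect of the oncogene was averaged over both receptor states, 1 of 9 members passed, beside 2.57% of all genes (1.71% higher and 0.864% lower), and 2 members (Aldoc and Gapdh) beside 18.8% of genes were under an unadjusted 0.05. The member was Aldoc, at 2.65 ± 0.62 (SE) or 6.28-fold, and nothing is read from this count since Aldoc was picked with the data known. It did not pass with slide as a random block (2.57, limma, adjusted p = 0.0671), in array set 1 alone (2.93, 0.408), in array set 2 alone (1.48, 0.174) or without IFNAR1-/- 41, 42 and 44 (2.46, 0.0565). The other 8 lay between -0.50 for Pfkl and -0.04 for Pgk1, all on the lower side, with a lowest adjusted p of 0.215 in limma's test. That shared side was not kept in array set 1 alone, where Aldoa was at 0.08, Slc2a1 at 0.34, Pkm at 0.06 and Ldha at 0.00, nor without the last slide, where Aldoa was at 0.25, Pkm at 0.17 and Slc2a1 at 0.01. Receptor loss averaged over both oncogene states gave 0 of 9 beside 0.0698% of genes, with 2 members (Pfkl and Gapdh) beside 8.62% of genes under an unadjusted 0.05, and the highest values were 0.64 ± 0.26 for Pfkl and 0.42 ± 0.17 for Gapdh (limma, lowest adjusted p = 0.488).

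**Figure D2:**
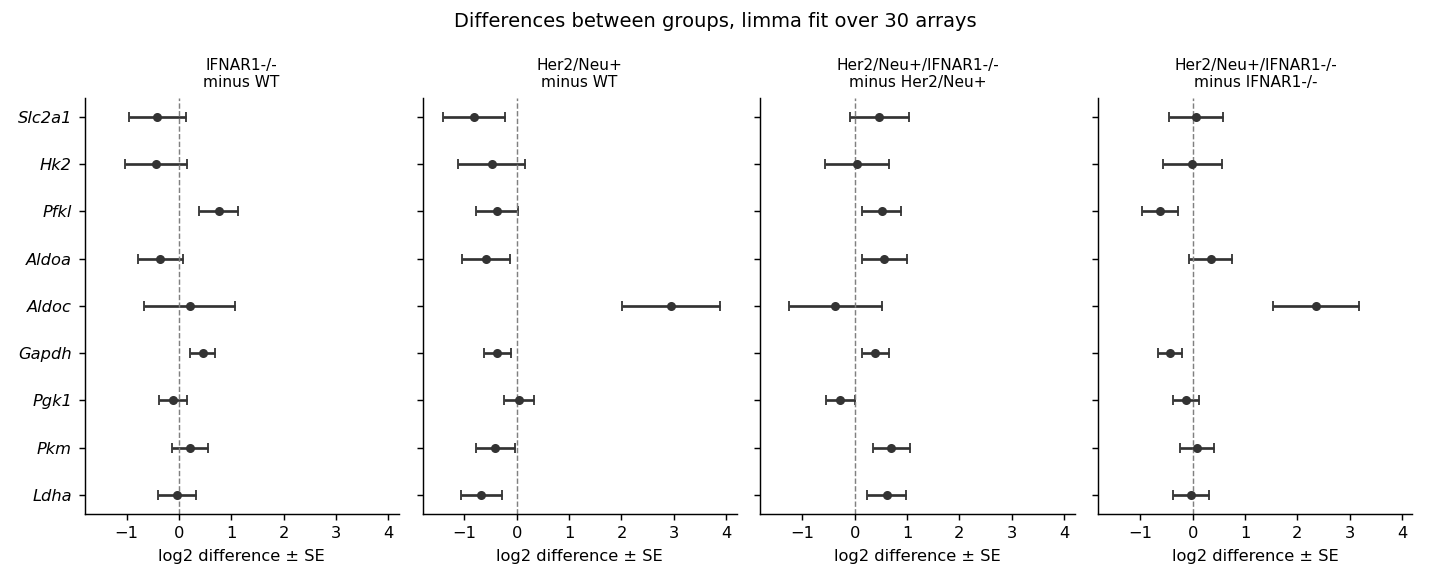
Log2 difference between groups with its SE for each measured gene, in 4 comparisons from the limma fit over 30 arrays. Aldoc lies at 2.94 and 2.36 in the 2 comparisons that add the oncogene, and the other genes stay between -0.82 and 0.76.

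The lowest Her2/Neu+ values of Aldoa, Gapdh, Pkm and Ldha came from the same pair of glands. Over Aldoa, Gapdh, Pkm and Ldha together, Her2/Neu+ 114 lay 1.74 and Her2/Neu+ 119 lay 0.70 log2 units below the mean of their group, while the median of all genes on these arrays was 0.09 and 0.12 above it. Both sit on the last inferred slide, with IFNAR1-/- 41, and are the Her2/Neu+ glands of the second array set. Within the first set the 4 Her2/Neu+ glands differed from the 4 WT glands by 0.02 ± 0.63 (SE) for Aldoa, 0.39 ± 0.33 for Pkm, -0.06 ± 0.43 for Ldha and 4.52 ± 1.15 for Aldoc. Hk2 ran the other way, at -1.08 ± 0.91 in the first set and 0.67 ± 0.88 in the second. Within the second set the 2 Her2/Neu+ glands differed from the 3 WT glands by -1.88 ± 0.37 for Aldoa, -1.98 ± 0.44 for Pkm, -1.93 ± 0.56 for Ldha and -0.14 ± 1.03 for Aldoc. Slc2a1, at the lower limit on both Her2/Neu+ glands, differed there by -2.58 ± 0.79. Pfkl differed by -1.20 ± 0.60, Gapdh by -1.12 ± 0.39 and Pgk1 by 0.13 ± 0.42. For Slc2a1, Pfkl, Gapdh and Pgk1 the first set gave 0.12, 0.17, 0.04 and 0.01. In the second set alone Aldoa and Pkm passed between Her2/Neu+ and WT glands (limma, adjusted p = 0.00750 and 0.0151), beside 6.51% of all genes, or 750 of 11514. There Aldoa, Pkm and Ldha also passed as higher in Her2/Neu+/IFNAR1-/- than in Her2/Neu+ glands, by 2.00 ± 0.34, 2.27 ± 0.40 and 1.86 ± 0.51 (limma, adjusted p = 0.00250, 0.00305 and 0.0398), beside 7.89% of all genes, or 908 of 11514. In the first set the same 3 differences were -0.10, -0.13 and 0.00. Without Her2/Neu+ 114 the difference of Aldoc between Her2/Neu+ and WT glands was 3.89. The part of slide or array set in these differences was not tested.

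After removing the mean of each group, Aldoa, Gapdh, Pkm and Ldha correlated with each other over the 30 arrays at r between 0.70 and 0.82 in all 6 pairs, and each pair held at an adjusted p under 0.05 over all 36 pairs of members (permutation of arrays within groups). The highest was Pkm with Ldha, at r = 0.82 and a rank correlation (rho) of 0.78 (permutation p = 2e-05 and 3e-05, adjusted p = 0.000180 and 0.000270). Its r was 0.67 without the 2 arrays farthest from the median of Pkm. Group means included, the 6 pairs ran from 0.59 to 0.83, from 0.61 to 0.83 in the first array set and from 0.68 to 0.87 in the second, and from 0.48 to 0.75 without Her2/Neu+ 114. For all pairs of genes the middle 90% of r lay between -0.38 and 0.43, with a median of 0.02. The arrays share the reference RNA and their hybridisation, so that these values describe how the measurements moved together. The permutations, here and below, treated the arrays of a group as exchangeable and did not keep slides or array sets apart. A shift shared by a slide or set would therefore enter both r and p, and its part was not tested.

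The r of Aldoc with these 4 genes within groups was 0.10 for Aldoa, 0.02 for Gapdh, 0.42 for Pkm and 0.20 for Ldha, none of them under an adjusted 0.05. These values depend on Her2/Neu+ 114: with member values that are shared to the last digit set to missing, which removes Aldoc there, they were -0.20, -0.27, 0.09 and -0.42. Its levels correlated positively with Slc2a1 (r = 0.64, rho = 0.64, permutation p = 0.00178 and 0.00137, adjusted p = 0.00712 and 0.00693) and negatively with Hk2 (r = -0.55, rho = -0.62, permutation p = 0.00452 and 0.00154, adjusted p = 0.0163 and 0.00693) and Pgk1 (r = -0.51, rho = -0.54, permutation p = 0.00178 and 0.00288, adjusted p = 0.00712 and 0.0115). Without the 2 arrays farthest from the median of Aldoc the 3 values were 0.55, -0.55 and -0.46, and with shared values set to missing they were 0.60, -0.56 over 25 arrays and -0.48. With group means included they were 0.38, -0.49 and -0.42 over all arrays, 0.50, -0.55 and -0.35 in the first array set and 0.22, -0.35 and -0.54 in the second. Of the 36 pairs 12 were under an adjusted p of 0.05, 8 of them positive and 4 negative.

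**Figure D3:**
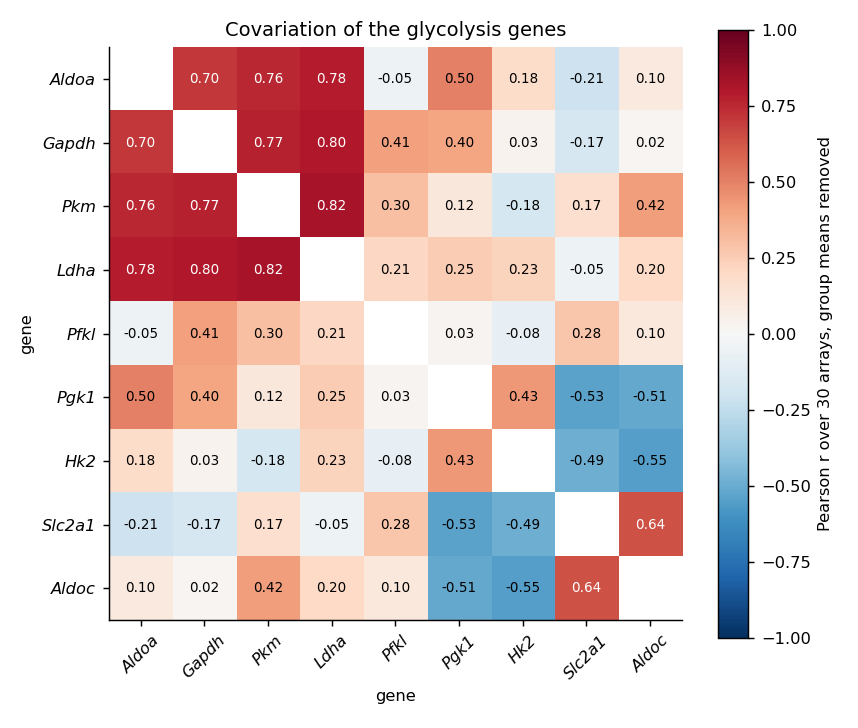
Pearson r between the measured genes over 30 arrays after removing group means, with r printed in each cell and shown by colour from -1 (blue) to 1 (red). Aldoa, Gapdh, Pkm and Ldha form the block of r from 0.70 to 0.82 at the upper left, and Aldoc is negative with Hk2 and Pgk1 and positive with Slc2a1.

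Aldoc also went with the markers of luminal epithelium, the milk-producing cell layer. Of 11 listed markers 7 were measured, and their mean after centring each gene was -0.76 ± 0.66 (SD, n = 7) for WT, -0.08 ± 1.05 (n = 8) for IFNAR1-/-, 0.31 ± 1.03 (n = 6) for Her2/Neu+ and 0.34 ± 0.62 (n = 9) for Her2/Neu+/IFNAR1-/- glands, with ranges of -1.38 to 0.40, -1.73 to 1.05, -1.45 to 1.04 and -0.50 to 1.21. Within groups it correlated with Aldoc at r = 0.66 and rho = 0.66 over 30 arrays (permutation p = 0.000170 and 0.000280, adjusted over 99 pairs of a list and a member 0.0168 and 0.0277), at 0.56 without the 2 arrays whose marker mean was farthest from the median, and at 0.55 without the shared value of Aldoc on Her2/Neu+ 114. This was the only one of the 99 pairs under an adjusted 0.05. With group means included r was 0.71, 0.79 in the first array set and 0.66 in the second. In the oncogene glands with the lowest Aldoc the mean was -1.45 (Her2/Neu+ 114) and -0.50 (Her2/Neu+/IFNAR1-/- 103). Single glands did not all follow this. Her2/Neu+/IFNAR1-/- 104, also low in Aldoc, was at -0.04. Her2/Neu+ 115, at -0.46, and Her2/Neu+/IFNAR1-/- 102, at -0.42, were near 103 in these markers. Yet Aldoc was at least 2.89 in the Her2/Neu+ glands of the first array set, which holds 115. It was at least 1.28 in the Her2/Neu+/IFNAR1-/- glands of the second, which holds 102.

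The 7 markers differed in how far they followed the oncogene and Aldoc. Krt18, a luminal keratin, was at 0.53 ± 0.54 (SD, n = 7) for WT and 0.54 ± 1.39 (n = 6) for Her2/Neu+ glands, and its r with Aldoc within groups was 0.87. Epcam, an epithelial adhesion gene, was at 0.41 ± 0.69 (n = 7) for WT and 2.89 ± 2.02 (n = 6) for Her2/Neu+ glands, with r = 0.69. Lalba, the milk protein that directs lactose synthesis, was at 0.07 ± 0.12 on the 4 WT arrays with a value and 5.93 ± 0.17 on the 6 Her2/Neu+ arrays, near the limit of the scale. It had a value on 21 of the 30 arrays, so that the marker mean of the others rests on fewer genes, and its r with Aldoc within groups was 0.07. Krt8, another luminal keratin, was at -1.27 ± 1.05 in WT and -0.91 ± 1.79 in Her2/Neu+ glands, with r = 0.71. Krt19, a further keratin, was lower in Her2/Neu+ (-0.42 ± 1.67) than in WT glands (1.15 ± 0.95), with r = 0.50. Cdh1, the epithelial cadherin, had r = 0.12 over 27 arrays, and Esr1, an oestrogen receptor, ran against Aldoc at r = -0.46 over 24 arrays. The part of epithelial content in the difference of Aldoc was not tested.

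**Figure D4:**
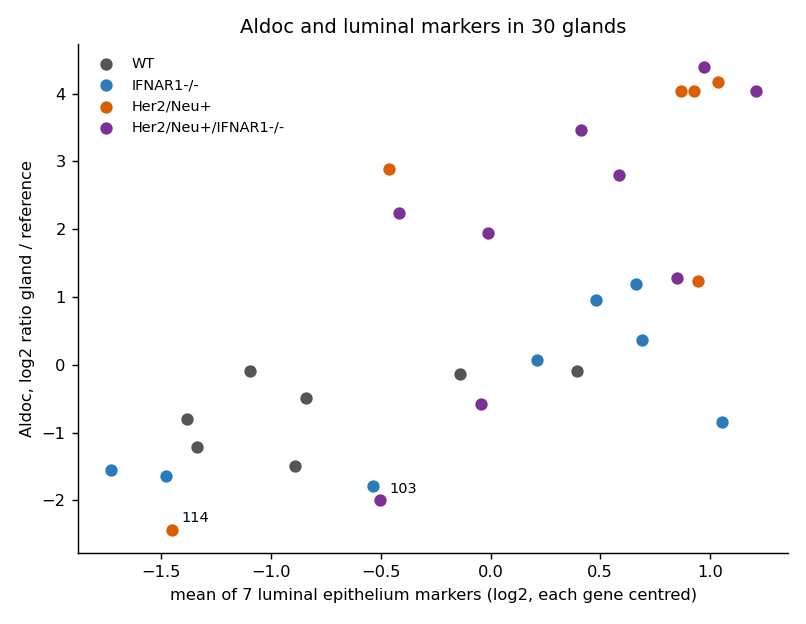
Aldoc (y axis, log2 ratio of gland to reference) against the centred mean of 7 luminal epithelium markers (x axis, log2) in 30 glands, coloured by group. Her2/Neu+ 114 and Her2/Neu+/IFNAR1-/- 103, labelled, are the oncogene glands with the lowest Aldoc, at -2.43 and -1.99.

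Of the other members, Pgk1 and Hk2 ran against the luminal markers within groups, at r = -0.60 and -0.52, which did not pass over the 99 pairs (permutation, adjusted p = 0.0670 and 0.149). These relations were not particular to the luminal list. With the basal and myoepithelial list Pgk1 was at r = -0.55 and Hk2 at -0.46 (permutation, adjusted p = 0.0579 and 0.280). Aldoc was at 0.54 with that list (adjusted p = 0.185), and at 0.16 without the 2 arrays farthest from the median of the list. The white adipocyte list, with 8 of 9 measured, went with Ldha at r = 0.55 and with Aldoa at 0.46 over all arrays, and the skeletal muscle list with Gapdh at 0.48 and with Slc2a1 at -0.40. In the 2 array sets these were 0.49 and 0.60, 0.47 and 0.48, 0.74 and 0.35, and -0.65 and -0.22. They are given as a description, and none of the 4 passed over the 99 pairs within groups. Their part in the levels of these members was not tested. IFNAR1-/- 42, one of the glands with high muscle markers, had the highest Aldoa of all glands, at 2.46, and its Gapdh, at -0.26, equalled that of IFNAR1-/- 44 to 2 decimals as the highest.

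Among the 10809 genes compared with Aldoc over at least 24 shared arrays, those with the most similar profile over all arrays were Acsl4 (r = 0.92), Fblim1 (0.91), Socs2 (0.89), Irx1 (0.88) and Tgfb3 (0.88). After removing group means they were Plpp2 (0.88), Acsl4 (0.88), Krt18 (0.87), Cd9 (0.86) and Tgfb3 (0.86). Acsl4 activates long-chain fatty acids and Socs2 is a feedback inhibitor of cytokine and growth hormone signalling. Acsl4 and Tgfb3 are in both sets. Of the values of Socs2, the mean of 12 probes, 90 are the same to the last digit as another value on their array. These genes are the extremes of a search, so the values are a description.

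The other genes of glucose metabolism were read from 6 lists with 62 genes, of which 49 were measured. Of these, 11 were other glycolytic enzymes and isoforms, 6 transporters of glucose and lactate and 11 regulators of flux and of pyruvate entry. A further 3 were genes of gluconeogenesis and 6 of the pentose phosphate pathway. None of these 37 genes passed in any comparison (limma), beside 0.0174% to 2.57% of all genes. Under an unadjusted 0.05 were 1 in IFNAR1-/- against WT glands (6.87% of all genes) and 6 in Her2/Neu+ against WT glands (12.1%). There were 6 in Her2/Neu+/IFNAR1-/- against Her2/Neu+ glands (11.2%) and 4 against IFNAR1-/- glands (18.5%). The interaction gave 3 (9.62%), the averaged oncogene 6 (18.8%) and averaged receptor loss 3 (8.62%). The 5 lists' lowest adjusted p-values in the comparison of Her2/Neu+ with WT glands were 0.165 for Pgam1, a phosphoglycerate mutase (-0.94 ± 0.29, SE), 0.501 for Slc2a4, the insulin-regulated transporter of fat and muscle (-0.25 ± 0.15), 0.158 for Pdk4, which restrains pyruvate entry into mitochondria (-2.92 ± 0.85), 0.568 for Pcx (-0.54 ± 0.35) and 0.158 for Taldo1, an enzyme of the pentose phosphate pathway (-1.29 ± 0.38), all from limma. Slc2a4 was at the limit of 6 on most arrays, which bounds any change upward. Pck1, of the gluconeogenesis list, stood at this limit on all 30 arrays, so it could not pass whatever its true level. Eno2, another enolase gene, had means of -1.52 ± 0.29 (SD, n = 7) for WT, -1.96 ± 0.96 (n = 8) for IFNAR1-/-, -1.43 ± 0.49 (n = 6) for Her2/Neu+ and -2.94 ± 0.58 (n = 9) for Her2/Neu+/IFNAR1-/- glands. Its differences were -1.50 ± 0.34 (SE) in Her2/Neu+/IFNAR1-/- against Her2/Neu+ glands and -0.97 ± 0.31 against IFNAR1-/- glands, and it did not pass (limma, adjusted p = 0.0964 and 0.0954).

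The sixth list holds hypoxia-response genes outside glycolysis, with 12 of 13 measured, and 2 rose and 1 fell in Her2/Neu+/IFNAR1-/- against IFNAR1-/- glands. The median difference over the 12 was 0.19, beside 0.15 for all genes, of which 0.942% rose and 0.366% fell. Egln3, an oxygen-sensing prolyl hydroxylase, ran from -4.37 to -2.17 in IFNAR1-/- glands (median -3.03) and from -2.43 to 0.85 in Her2/Neu+/IFNAR1-/- glands (median -0.93), so that the groups overlapped at their edges. It rose by 2.26 ± 0.49 (SE), or 4.79-fold (limma, adjusted p = 0.0232). P4ha1, a subunit of the hydroxylase that matures collagen, rose by 1.53 ± 0.34 from -1.94 ± 0.76 (SD) to -0.41 ± 0.73 (limma, adjusted p = 0.0267). With values shared to the last digit set to missing, P4ha1 had too few values left to be tested. P4ha2, its sister subunit, was at -1.99 ± 0.38 (SD) and -3.24 ± 0.98 and fell by 1.25 ± 0.32 (SE; limma, adjusted p = 0.0424). Thus P4ha1 and P4ha2 moved in opposite directions.

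Of the 49 genes the same 3 passed when the oncogene was averaged over both receptor states, beside 2.57% of all genes. Of all genes 1.71% passed as higher and 0.864% as lower. The values were 2.28 ± 0.37 (SE) for Egln3, 1.03 ± 0.26 for P4ha1 and -1.41 ± 0.24 for P4ha2 (limma, adjusted p = 0.000799, 0.0309 and 0.00118). This average includes the comparison of Her2/Neu+/IFNAR1-/- with IFNAR1-/- glands, so it is no separate support for these 3 genes. In its other part, Her2/Neu+ against WT glands, their differences were 2.29 ± 0.56, 0.52 ± 0.39 and -1.58 ± 0.36, none past the threshold (limma, adjusted p = 0.0874, 0.627 and 0.0845). Egln3 correlated with Aldoc over the 30 arrays at r = 0.59, P4ha2 at -0.52 and P4ha1 at 0.08. The 3 calls against IFNAR1-/- glands depend on single glands. Egln3 missed the threshold when 1 of IFNAR1-/- 46, Her2/Neu+/IFNAR1-/- 109 or 110 was left out (limma, adjusted p from 0.0513 to 0.0545) and with slide as a random block (0.128), and P4ha1 when 1 of IFNAR1-/- 46, 47, 50 or Her2/Neu+/IFNAR1-/- 109 was left out (0.0520 to 0.0601). P4ha2 missed it when 1 of 13 arrays was left out (0.0501 to 0.101), which are IFNAR1-/- 39, 44, 46, 47 and 50, Her2/Neu+/IFNAR1-/- 104, 105, 108, 110 and sample107 and WT 53, 56 and 57. In the averaged comparison Egln3 and P4ha2 passed whichever 1 array was left out, while P4ha1 missed the threshold when 1 of WT 53, 60, IFNAR1-/- 47, 50, Her2/Neu+ 113 or 119 was left out (0.0503 to 0.0608).

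**Figure D5:**
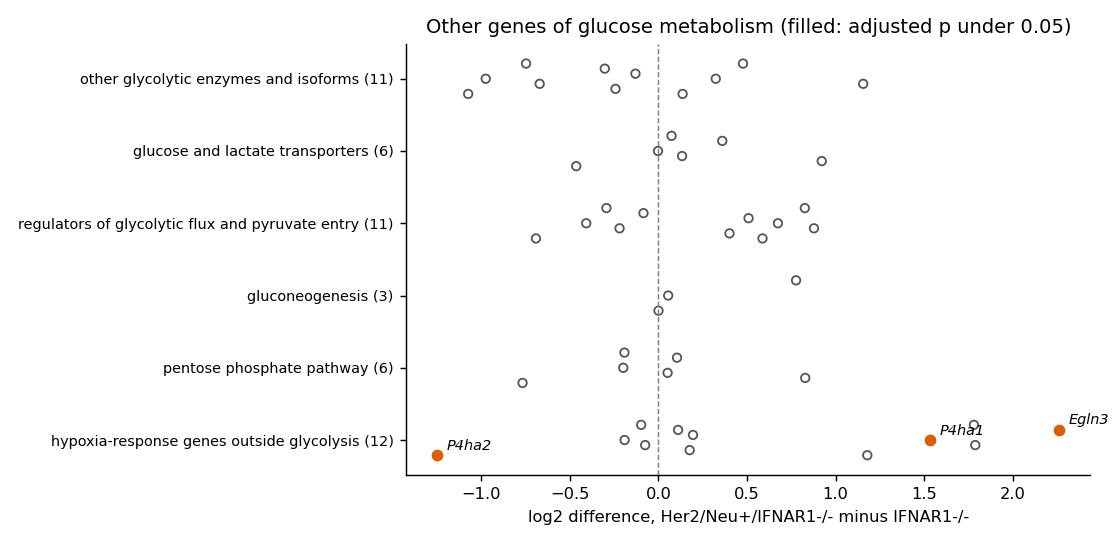
Log2 difference of Her2/Neu+/IFNAR1-/- from IFNAR1-/- glands (x axis) for 49 genes in 6 lists, with the number measured in brackets; filled points have an adjusted p under 0.05 over all genes. The 3 filled points are Egln3 at 2.26, P4ha1 at 1.53 and P4ha2 at -1.25.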

How the data were processed

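RNA of 30 glands was hybridised with a common reference on 2-colour Agilent arrays, gland in Cy5 and reference in Cy3 per the labels. The authors deposited 1 log2 ratio per probe and array. That the logarithm has base 2 rests on the limit of 6, and the direction on the dyes. Background correction, normalization and filters of the authors are not given in the sources used here. No intensities were used, so signal over background is unknown. Precision is set by how many arrays there are.

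Of 20896 probes, 17376 carried 1 gene symbol in the platform annotation and 3520 none. Probes measured in at least 50% of each group's arrays were kept and averaged per gene (11463 genes), with no further scaling. limma 3.58.1 (R 4.3.3) estimated the differences (lmFit, eBayes, two-sided, Benjamini-Hochberg over all genes, threshold 0.05) in 1 fit with 4 group means. The labels number samples but name no pairs, so p-values reflect only the spread between the samples, which may be technical. No inferred slide holds both groups of any of the 4 pairwise comparisons. Correlations were tested by 100000 permutations of arrays within groups, the smallest p being 1e-05. For rho, values were ranked after removing group means, and group means were then removed from the ranks. Arrays farthest from a median were likewise chosen on values with group means removed. The fit and the correlation test were tested on simulated data.

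The members, gene lists and tests were chosen with earlier results of these data known. All 9 measured members were named throughout; of each list, up to 4 genes past the threshold or else the 1 with the smallest p; and the 5 genes nearest Aldoc by each of 2 measures. The averaged contrasts, the alternatives for Egln3, P4ha1 and P4ha2, and correlations without repeated values, were added after seeing the data. Alternatives covered normalization, filters, choice of probe, weights, variance trend, block number, slide, array set, repeated and limit values, and leaving out each array.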

Additional observations from a re-analysis of the deposited data

Results flagged for a closer look

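For 12 genes (the 9 measured members, Egln3, P4ha1 and P4ha2) in 4 groups, the highest or lowest gland was set against the rest of its group by Dixon's gap test, and 7 of 48 gene and group combinations stood out, where chance gives about 1 in 20. Aldoa was at 2.46 on IFNAR1-/- 42, and the next gland of the group was at 0.62. The same array held Slc2a1 at the lower limit of -6, with the next gland at -4.17, and it is 1 of the 3 IFNAR1-/- arrays with high skeletal muscle markers. Slc2a1 was at -4.63 on WT 55, against -3.63 for the next WT gland. Pfkl was at -2.39 on IFNAR1-/- 45, against -1.01. Ldha was at -0.41 on WT 56, against -1.01, and at -4.20 on Her2/Neu+ 114, against -1.78. P4ha1 was at -2.50 on Her2/Neu+ 120, against -0.96.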

How the results depend on the processing

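Over 49 alternatives no called result changed its direction. The count of members past the threshold in Her2/Neu+ against WT glands, 0 of 9, became 1 (Aldoc) with array weights, without the last slide, with repeated values (those that several probes of an array share to the last digit) set to missing and without Her2/Neu+ 114, and 2 (Aldoa and Pkm) in array set 2 alone, and it ran from 0 to 1 when single arrays were left out. All genes called in these 5 settings were 1.76%, 0.166%, 0.589%, 0.192% and 6.51%, beside 0.131% in the fit reported. In Her2/Neu+/IFNAR1-/- against Her2/Neu+ glands it became 3 in array set 2 alone (7.89% of all genes), and against IFNAR1-/- glands 1 (Aldoc) with array weights (5.78%) and with repeated values set to missing (4.04%). The interaction gave 2 (Aldoa and Pkm; 4.22% of genes), and averaged receptor loss 1 (Pkm; 2.54%), in array set 2 alone. The averaged effect of the oncogene, 1 of 9, became 0 in array set 1 alone, in array set 2 alone, with a random slide effect, without IFNAR1-/- 41, 42 and 44 and at an adjusted p under 0.01, and stayed 1 whichever single array was left out. Aldoc lay between 1.48 and 3.30 in that comparison over all 48 alternatives. Without the last slide the difference of Aldoc between Her2/Neu+ and WT glands was 4.40. In IFNAR1-/- against WT glands the count stayed 0 under every alternative. Of the calls on other genes, Egln3 was kept in 41 of 49 alternatives, P4ha1 in 37 of 48 and P4ha2 in 29 of 49 in Her2/Neu+/IFNAR1-/- against IFNAR1-/- glands, and in 46 of 48, 37 of 47 and 47 of 48 for the averaged oncogene. With repeated values set to missing, P4ha1 had too few values to be tested. Fits of an array set alone used fewer arrays, and the cause of these changes was not tested in any setting. No paired analysis was possible because the groups share no replicate numbers. Slides and sets were inferred, and no slide holds both groups of a pairwise comparison, so slides and groups cannot be told apart. Values at the limit of 6 or -6, on 4 arrays for Slc2a1, are bounds.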
